A study of Mus musculus with 8 samples.

Results

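Atxn2l, Gnb2, Gnptg, Lzts3 and Usp19 are 5 of the 32285 genes counted in single-nucleus RNA libraries of mouse anterior hippocampus and caudate putamen. They were picked from an earlier reading of these counts, as short genes with lower levels at 21 than at 3 months of age in several caudate putamen cell classes and level values in the hippocampus. The age differences of these genes in both regions, and the contrast between the regions' age differences, are therefore the values that chose them. Those values are given here as a description. Counts of how many passed a threshold stand beside the share over all genes and support nothing about the members.

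The nuclei came from tissue punches of C57BL/6JN mice, an inbred laboratory strain, taken on the left side of the brain, with no treatment, transgene or deletion named in the labels. There were 4 groups of 2 libraries each: hippocampus at 3 months, hippocampus at 21 months, caudate putamen at 3 months and caudate putamen at 21 months. Each library pooled nuclei of 1 male and 1 female of the same age, which had been released with a detergent lysis buffer, sorted on Hoechst stain and loaded on the 10x droplet platform. With 2 libraries a group, the spread between replicates is a spread between pools and not between single animals. The deposited matrices held 67205436 to 234811422 unique molecular identifiers (UMIs, 1 per captured RNA molecule) per library, and 99741 of 109826 barcodes were kept as nuclei.

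The 5 proteins have separate jobs in the cell. Atxn2l encodes ataxin-2-like, an RNA-binding relative of ataxin-2 that is found in stress granules and processing bodies. Gnb2 encodes a beta subunit of heterotrimeric G proteins, which pairs with a gamma subunit and passes on signals from receptors such as those for dopamine. Gnptg encodes the gamma subunit of the Golgi enzyme that starts the mannose 6-phosphate tag by which hydrolases are sent to lysosomes. Lzts3, also known as ProSAPiP1, encodes a leucine zipper protein of the postsynaptic density that binds Shank scaffold proteins. Usp19 encodes a deubiquitinating enzyme with a form anchored in the endoplasmic reticulum membrane, where misfolded proteins are drawn out for degradation. A nuclear library counts RNA that is still in the nucleus, much of it unspliced, so a level here is not a level of cytoplasmic messenger RNA.

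All 5 are protein-coding genes, and their positions are given in GRCm38 with the GENCODE vM21 annotation. Atxn2l lies on the minus strand at chr7:126491708-126503437, Gnb2 on the minus strand at chr5:137528127-137533510 and Gnptg on the minus strand at chr17:25233331-25240124. Lzts3 lies on the minus strand at chr2:130632839-130642803, and Usp19 on the plus strand at chr9:108490602-108502337. They span 5384 (Gnb2), 6794 (Gnptg), 9965 (Lzts3), 11730 (Atxn2l) and 11736 bases (Usp19), against a median of 22399 bases for the genes tested in D1-like medium spiny neurons. These spans are between the percentiles 15.9 and 32.1 of those genes. Exons cover a large part of each member, from 33.1% of the span in Gnptg to 63.2% in Gnb2, against a median of 16.7%. Their transcripts are rich in G and C in 4 of the 5 genes (57.2% in Atxn2l, 57.5% in Usp19, 58.8% in Lzts3 and 59.9% in Gnb2), and Gnptg, at 48.4%, is near the median of 48.82%.

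The stretches of DNA just before the annotated starts of the 5 genes are given below. Each is printed 5′ to 3′ on the strand of its gene, from RefSeq on GRCm38.p6, lies outside the member's annotated span and within the 250 bases before its RefSeq start, and is cut at 120 bases or at the next gene on that side (Gnptg and Usp19), with GC boxes (GGGCGG, or CCGCCC on the other strand) in capitals. The stretches are chr7:126503438-126503557 (Atxn2l), chr5:137533511-137533556 (Gnb2), chr17:25240141-25240169 (Gnptg), chr2:130642845-130642964 (Lzts3) and chr9:108490531-108490601 (Usp19).
Atxn2l: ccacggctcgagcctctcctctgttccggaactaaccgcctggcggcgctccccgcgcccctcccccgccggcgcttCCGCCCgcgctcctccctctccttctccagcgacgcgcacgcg
Gnb2: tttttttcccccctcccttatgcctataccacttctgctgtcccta
Gnptg: ggttttgaggggagtcagttccggctgtc
Lzts3: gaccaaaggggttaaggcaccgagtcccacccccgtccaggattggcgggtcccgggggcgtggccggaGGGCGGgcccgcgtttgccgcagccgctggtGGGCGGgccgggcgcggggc
Usp19: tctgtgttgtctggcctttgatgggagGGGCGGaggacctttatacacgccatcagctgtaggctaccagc
In the 250 bases before each RefSeq start, the share of G and C was 71.6% for Atxn2l, 66.4% for Lzts3, 59.6% for Gnptg, 57.6% for Usp19 and 51.6% for Gnb2, and the median over 27025 such windows was 52.0%. Annotated exons fill the last 204 bases of the Gnb2 window and the last 74 bases of the Usp19 window. The Gnptg and Usp19 windows also reach into the next gene. A GC box was found in 3 of the 5 windows (Atxn2l, Lzts3 and Usp19) and in 33.0% of all windows. All motifs were searched on both strands. The ETS core CCGGAA was found in 3 of 5 (Atxn2l, Gnptg and Usp19) and in 12.3% of all windows. The CCAAT box was in the Lzts3 window alone (34.5% of all), the TATAAA box in the Usp19 window alone, where it lies on the strand opposite to the gene (13% of all windows on either strand), and the E-box CACGTG (6.0%) and the CRE core TGACGT (6.5%) in none of the 5. No motif searched was in all 5 windows, and a match is a run of letters rather than a site shown to be bound.

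Nuclei were clustered within each region and named from marker genes, and a class so named is called X-like. In the caudate putamen, 7 classes were followed: D1-like and D2-like medium spiny neurons (the projection neurons of the direct and indirect pathways), interneuron-like cells, and astrocyte-like, oligodendrocyte-like, oligodendrocyte-precursor-like (OPC-like) and microglia-like cells. In the hippocampus 8 were followed: dentate-granule-like, CA1-like, CA3-like and interneuron-like neurons and the same 4 glial classes. Counts of a class were summed per library and scaled by the total of that sum to CPM, the usual depth-normalised unit of counts. A member had 9 to 8329 UMIs in a caudate putamen sum and 4 to 7281 in a hippocampal one, with the fewest in OPC-like and microglia-like cells. The library, never the nucleus, is the replicate below, and in every value that follows the 2 libraries of an age are named as replicates 1 and 2, with no word in the labels on whether equal numbers share animals.

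Lzts3, the postsynaptic scaffold gene, was lower at 21 months in medium spiny neurons, and its summed level overlapped between the ages in the granule neurons of the dentate gyrus. In caudate putamen D1-like neurons it was at 133.5 and 100.22 CPM in the 2 libraries of 3 months and at 61.64 and 64.38 CPM in those of 21 months. In D2-like neurons the values were 136.73 and 103.16 CPM at 3 months and 63.53 and 65.22 CPM at 21 months. Both ages stood well apart, and the old libraries were at 53.9% and 53.7% of the young mean. In dentate-granule-like neurons, the class with the most Lzts3 in the hippocampus, the 4 libraries were close together, at 57.76 and 60.16 CPM at 3 months and 58.51 and 59.52 CPM at 21 months. The sum hides single clusters of that class: in 2 of its 4 clusters with at least 20 nuclei in every library, both old libraries were below both young ones, with means of 73.33 and 66.56 CPM in the first and 61.51 and 53.07 CPM in the second. Among the caudate putamen glia, microglia-like cells had the lowest fitted value, with 58.04 and 43.99 CPM at 3 months and 9.86 and 22.15 CPM at 21 months, which is 31.4% of the young mean. The fitted log2 age difference of Lzts3 in the caudate putamen ran from -1.65 (SE 0.37) in microglia-like to -0.68 (SE 0.18) in interneuron-like cells. The microglia-like value rests on few UMIs and was -1.11 without replicate 1 and -2.33 without replicate 2 of the old libraries. Hippocampal Lzts3 did not overlap between the ages in some classes. CA1-like neurons had 34.38 and 34.26 CPM at 3 months against 23.85 and 25.54 CPM at 21 months, and oligodendrocyte-like cells had 15.4 and 18.04 against 8.36 and 9.91 CPM. In both of these classes the old libraries were below both young ones, at 72% and 54.6% of the young mean. That order was found in 32.6% of the genes tested in CA1-like and 28.7% of those in oligodendrocyte-like cells. Lzts3 was called in 0 of the 8 hippocampal classes.

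Atxn2l, the RNA granule gene, was lower in all 7 caudate putamen classes and near its young level in the hippocampus. D1-like neurons of the caudate putamen held 56.03 and 48.68 CPM at 3 months and 24.75 and 22.28 CPM at 21 months. Interneuron-like cells, the neurons in which it was highest, held 91.77 and 78.08 CPM at 3 months and 31.88 and 32.77 CPM at 21 months. In each of the 7 classes both old libraries were under both young ones, as for 2.39% of the genes tested in all 7. The old mean was 38.1% to 49.3% of the young mean. The log2 age difference ran from -1.37 (SE 0.11) in interneuron-like to -0.97 (SE 0.11) in oligodendrocyte-like cells. In the hippocampus the old mean was between 89.3% and 116.8% of the young mean over the 8 classes. Dentate-granule-like neurons had 34.66 and 36.58 CPM at 3 months and 36.18 and 37.64 CPM at 21 months, and CA1-like neurons had 40.61 and 38.65 against 43.41 and 39.93 CPM. These ages overlapped. Hippocampal astrocyte-like cells moved the other way, with 39.25 and 40.21 CPM at 3 months and 47.16 and 45.62 CPM at 21 months.

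Gnb2, the G protein beta subunit, was lower at 21 months in medium spiny neurons by a like amount. Its level in D1-like neurons was 61.39 and 53.93 CPM at 3 months and 30.63 and 22.79 CPM at 21 months, and in D2-like neurons 64.56 and 59.67 against 32.67 and 25.98 CPM. Microglia-like cells had the highest Gnb2 level of the caudate putamen classes, 107.14 and 93.21 CPM at 3 months, and 50.19 and 37.65 CPM at 21 months. Both old libraries were lower in every caudate putamen class, as for 2.39% of the genes tested in all of them. The log2 age difference was between -1.15 (SE 0.26) in microglia-like and -0.81 (SE 0.16) in oligodendrocyte-like cells. In the hippocampus 0 of the 8 classes were called for Gnb2. The CA3-like neurons had 25.11 and 29.57 CPM at 3 months and 15.53 and 20.21 CPM at 21 months (65.3% of the young mean), and 5 of the 8 classes had both old libraries under both young ones, an order found in 27.6% of all hippocampal gene and class pairs. Hippocampal OPC-like cells did not share this, with 12.61 and 27.41 CPM at 3 months and 19.26 and 22.22 CPM at 21 months.

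Gnptg, the subunit of the lysosomal tagging enzyme, was at 69.86 and 67.43 CPM in D1-like neurons at 3 months and at 39.45 and 35.16 CPM at 21 months. D2-like neurons had 72.56 and 66.82 CPM at 3 months and 42.93 and 37.18 CPM at 21 months. In astrocyte-like cells the values were 43.36 and 48.13 against 21.15 and 22.52 CPM. Over the 7 caudate putamen classes the old mean was 47.7% to 57.5% of the young mean, the narrowest range of the 5 members, with log2 age differences of -1.05 (SE 0.16) in astrocyte-like to -0.80 (SE 0.28) in OPC-like cells. Hippocampal log2 age differences of Gnptg were below 0 in 7 of 8 classes and above 0 in 1, and 0 were called. Astrocyte-like cells had 26.79 and 35.16 CPM at 3 months and 21.85 and 22.35 CPM at 21 months, and OPC-like cells had 21.61 and 23.06 against 30.26 and 32.22 CPM. The first of these classes had both old libraries below the young ones, as had 27.1% of the genes tested there. The second had both above, as had 15% of the genes tested there.

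Usp19, the deubiquitinating enzyme, was highest in astrocyte-like cells, at 85.2 and 81.99 CPM at 3 months and 42.14 and 32.98 CPM at 21 months in the caudate putamen. D1-like neurons had 49.7 and 39.79 CPM at 3 months and 23.29 and 18.65 CPM at 21 months. The log2 age difference was -1.15 (SE 0.16) in interneuron-like cells and -0.65 (SE 0.28) in OPC-like cells, the ends of its range. In OPC-like cells, where the gene was counted from few UMIs, the values were 36.6 and 43.06 CPM against 21.0 and 28.82 CPM, still without overlap. Of the 5 genes Usp19 had the lower order in the most hippocampal classes: 7 of the 8 classes had both old libraries below both young ones (27.6% of all hippocampal pairs did), and 0 of the 8 were called. The steps were small in neurons, for example 31.28 and 32.12 CPM at 3 months and 27.32 and 26.97 CPM at 21 months in dentate-granule-like neurons, which is 85.6% of the young mean.

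**Figure D1:**
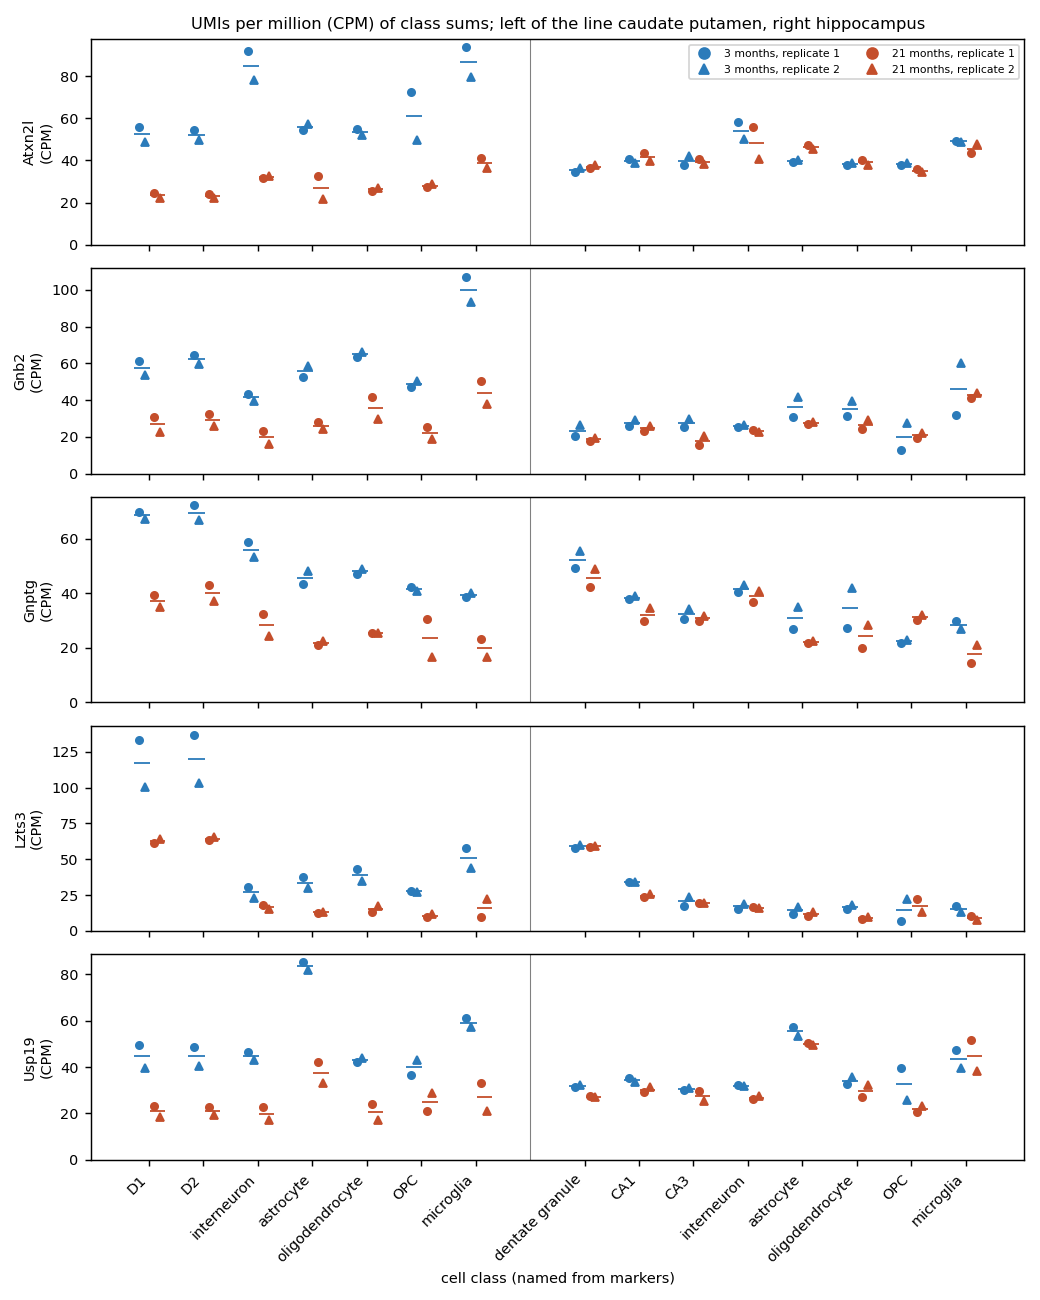
Level of each member in CPM (vertical axes, 1 panel a gene) by cell class (horizontal axis), caudate putamen on the left and hippocampus on the right; points are single libraries of 3 and 21 months and short lines are group means of 2 libraries. In the caudate putamen both old points are under both young points for all 35 pairs of a gene and a class, and in the hippocampus for 21 of 40. Over all genes that order was found in 24% of caudate putamen and 27.6% of hippocampal pairs.

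Across members and classes, the 35 caudate putamen pairs had log2 age differences from -1.65 to -0.65 with a median of -1.07. The old libraries were below both young ones in 35 of 35 pairs. That order was found in 24% of all gene and class pairs, and of the 8744 genes tested in all 7 classes 2.39% had it in every class. By the edgeR quasi-likelihood test with Benjamini-Hochberg adjustment over all genes of a class, 21 of the 35 pairs passed an adjusted p of 0.05 in the lower direction, against a background of 0.747% of all gene and class pairs. Atxn2l was called in 6 classes, Gnptg, Lzts3 and Usp19 in 4 each, and Gnb2 in 3. By class, all 5 members were called in D2-like (background 2.81%), astrocyte-like (0.0996%) and oligodendrocyte-like cells (0.403%), and 4 in D1-like neurons (0.978%). Interneuron-like (0.0142%) and microglia-like cells (0.0392%) had 1 each, and OPC-like cells (0.0287%) had 0, with DESeq2 calling 0 there and all 5 having an unadjusted p under 0.05. These counts restate the choice of the genes and are no support for it.

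**Figure D2:**
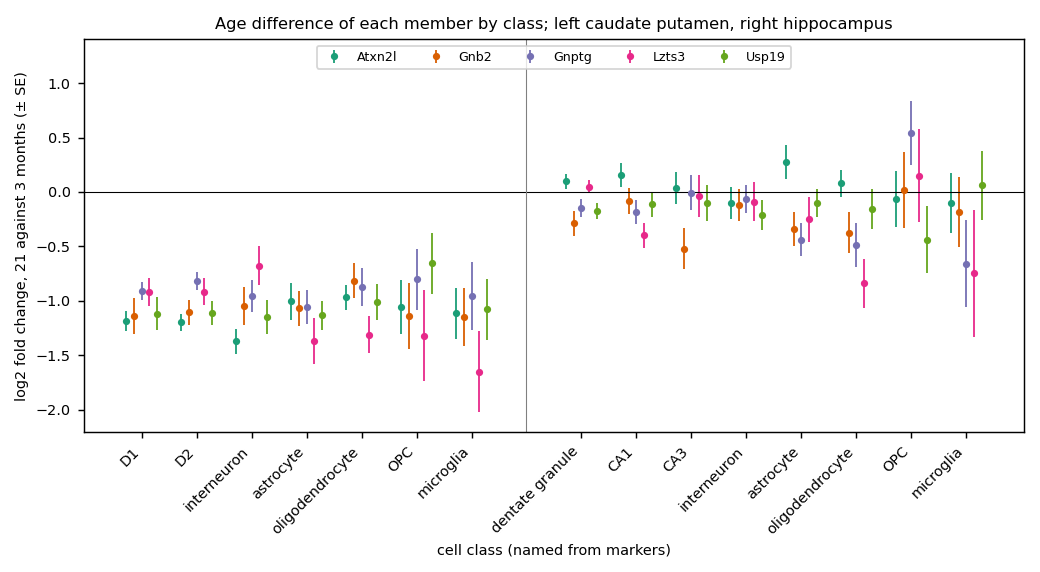
Fitted log2 age difference (21 minus 3 months, vertical axis) of each member in each cell class (horizontal axis) of the caudate putamen and the hippocampus, with bars of 1 standard error of the fit. Caudate putamen values are all below 0, with a median of -1.07, and hippocampal values have a median of -0.11 and a range from -0.84 to 0.54.

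In the hippocampus the 40 pairs had log2 age differences from -0.84 in oligodendrocyte-like (Lzts3) to 0.54 in OPC-like cells (Gnptg), with a median of -0.11, and 30 of 40 were below 0. With edgeR 0 of 40 were called (8 had an unadjusted p under 0.05), and 0 with DESeq2, where 1.03% of all hippocampal gene and class pairs were called in either direction. Both old libraries were below both young ones in 21 of 40 pairs (52.5%) and above in 2, where 27.6% and 15.5% of all hippocampal gene and class pairs were. The lowest hippocampal difference, -0.84, went past the weakest caudate putamen one, -0.65. By order, Usp19 had the lower order in 7 classes, Gnb2 in 5, Gnptg in 4, Lzts3 in 3 and Atxn2l in 2.

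The age differences of the regions were set against each other in the 4 glial classes, which were fitted on all 8 libraries. The caudate putamen difference minus the hippocampal one was between -1.47 and -0.22 on the log2 scale over the 20 pairs, with a median of -0.98. With edgeR 0 of 20 were called at an adjusted p of 0.05, as were 0% of all pairs tested (14 of the 20 had an unadjusted p under 0.05), and with DESeq2 also 0. For Atxn2l the contrast was -1.28 (SE 0.23) in astrocyte-like and -1.05 (SE 0.16) in oligodendrocyte-like cells. For Gnptg and Lzts3 in oligodendrocyte-like cells it was -0.38 (SE 0.27) and -0.47 (SE 0.28).

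Hippocampal levels can be set beside both ages of the caudate putamen, as shown here for Atxn2l and Lzts3. These are values that chose the genes, so they are a description. The share of all genes with a like order was not computed, and no count over members is given. In oligodendrocyte-like cells, Atxn2l was at 37.81 to 40.36 CPM in the hippocampus, between 55.09 and 51.99 CPM in the young and 25.67 and 27.08 CPM in the old caudate putamen. Lzts3 in the same cells was at 8.36 to 18.04 CPM in the hippocampus, against 43.37 and 35.05 CPM in the young and 13.35 and 17.18 CPM in the old caudate putamen.

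The mean over both ages is another contrast than the one that picked the genes, and the difference between regions was tested on it in glia. The same caudate putamen values enter both contrasts. A high young level raises the mean tested here, and a low old level lowers it. Of the 20 pairs, 4 were called by edgeR at an adjusted p of 0.05, all higher in the caudate putamen, and 6.63% of all pairs were called higher. Lzts3 was 1.93-fold higher in oligodendrocyte-like cells (log2 0.95, SE 0.14, edgeR adjusted p = 0.000851), 1.60-fold in astrocyte-like cells (log2 0.68, SE 0.15, edgeR adjusted p = 0.00604) and 2.42-fold in microglia-like cells (log2 1.27, SE 0.34, edgeR adjusted p = 0.0355). Gnb2 was 1.53-fold higher in oligodendrocyte-like cells (log2 0.62, SE 0.12, edgeR adjusted p = 0.0067). These averages join unequal ages. Lzts3 in astrocyte-like cells was at 37.48 and 29.94 CPM in the caudate putamen against 11.87 and 16.95 CPM in the hippocampus at 3 months, but at 12.56 and 13.42 against 10.59 and 13.27 CPM at 21 months, where the regions overlapped. They also overlapped at 21 months in microglia-like cells (9.86 and 22.15 against 10.3 and 7.66 CPM). In oligodendrocyte-like cells they stayed apart at 21 months for Lzts3 (13.35 and 17.18 against 8.36 and 9.91 CPM) and, narrowly, for Gnb2 (41.59 and 29.5 against 24.26 and 28.94 CPM). The Lzts3 differences in astrocyte-like and oligodendrocyte-like cells were called in all 17 settings tried. The one in microglia-like cells was called in 7 of 16 (edgeR or DESeq2 adjusted p from 0.00599 to 0.287), and that of Gnb2 in 16 of 17, being lost once the trend with GC content was removed (log2 0.43). Atxn2l, Gnptg and Usp19 were called in no glial class, with log2 differences between -0.15 and 0.35. For Atxn2l in oligodendrocyte-like cells the 95% interval was -0.25 to 0.11, and for Usp19 in the same cells -0.39 to 0.15.

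Lzts3 is most abundant in medium spiny neurons, so the RNA of those neurons in the glial sums was measured beside this result. The summed level of 8 general medium spiny markers was 10325 to 11914 CPM in D1-like neurons. In caudate putamen oligodendrocyte-like cells it was 1151 to 1825 CPM, against 254 to 318 CPM in the hippocampus. In astrocyte-like cells it was 1628 to 2070 CPM against 705 to 828 CPM, and in microglia-like cells 1105 to 2057 CPM against 73 to 220 CPM. In OPC-like cells, where Lzts3 was not called between regions, the markers were also higher, at 1303 to 1590 CPM against 799 to 865 CPM. The log2 difference of Lzts3 there was imprecise, at 0.03 (SE 0.43) by DESeq2 and -0.22 to 0.58 over the settings tried. The markers were thus higher in the caudate putamen in all 4 glial classes and Lzts3 in 3, and their part in the difference of Lzts3 between regions was not tested. Within the caudate putamen the marker sum overlapped between the ages in these 3 classes. In microglia-like cells, for instance, it was 1555 and 1687 CPM at 3 months and 1105 and 2057 CPM at 21 months. Lzts3 itself was lower in old D1-like neurons (133.5 and 100.22 against 61.64 and 64.38 CPM), so a level marker sum need not mean level Lzts3 from those neurons. The part of such RNA in the age differences of glial Lzts3 was not tested.

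**Figure D3:**
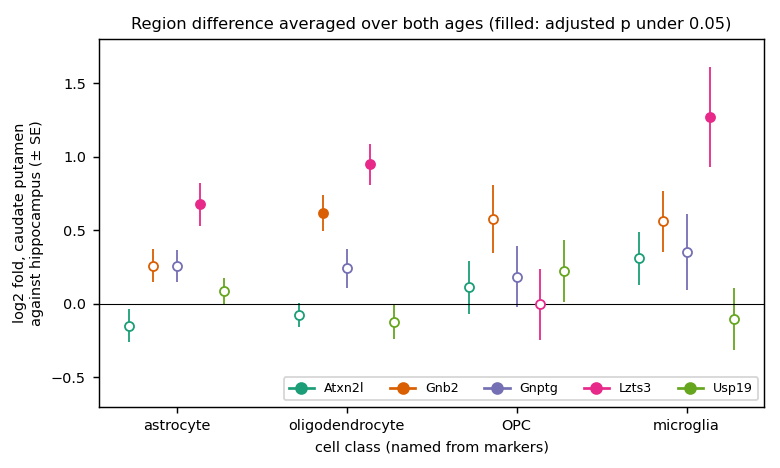
Fitted log2 difference of caudate putamen against hippocampus, averaged over both ages (vertical axis, with bars of 1 standard error), for each member in the 4 glial classes (horizontal axis); filled points had an adjusted p under 0.05. The 4 filled points are Lzts3 in astrocyte-like (0.68), oligodendrocyte-like (0.95) and microglia-like cells (1.27) and Gnb2 in oligodendrocyte-like cells (0.62).

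The counting software differed between libraries and was examined first. The headers of 7 matrices name Cell Ranger 6.1.2, and the header of replicate 2 of the young caudate putamen names version 7.0.0. Over the 35 pairs its level was 0.689 to 1.176 times that of replicate 1, with a median of 0.921, and it was the higher of the pair in 9 of 35. Lzts3 was lower in it in all 7 classes, at a median of 0.761 times replicate 1. Without that library all remaining libraries had 1 version. The 35 log2 age differences were then between -1.84 and -0.51, with a median of -1.09, and 35 of 35 were below 0. As both old libraries were below both young ones in all 35 pairs, values below 0 are no test of the fall. The difference was further below 0 without the library counted by the other version in 26 of 35 pairs and closer to 0 in the other 9, such as Usp19 in OPC-like cells (-0.51 against -0.65). These counts follow from which young replicate was the higher and add no further result. As 1 library alone had version 7.0.0, the version cannot be told apart from that library.

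Leaving out any other caudate putamen library also left 35 of 35 differences below 0, which is no test for the same reason. Their median was -1.04 without replicate 1 of the young, and -1.20 and -0.94 without replicates 1 and 2 of the old libraries. The number of called pairs did depend on each of these libraries. From 21 of 35, it went to 7 and 8 when replicate 1 or replicate 2 of the young was left out, and to 13 and 10 when replicate 1 or replicate 2 of the old was. Calls over all genes fell too: from 0.747% of all pairs called lower, the share went to 0.185% and 0.0876% without replicates 1 and 2 of the young, and to 0.237% and 0.21% without those of the old. Hippocampal libraries, which enter the glial fits, also moved the count. The members' called glial pairs went from 11 of 20 to 17 and 16 without replicates 1 and 2 of the young hippocampus, and to 5 and 7 without those of the old one, where 0.987%, 0.993%, 0.687% and 0.684% of all caudate putamen pairs were called lower. The labels give no preparation or sequencing dates, so steps of library making that followed the ages cannot be told apart from age.

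Depth, gene length, GC content and the naming of classes were varied in turn. The median log2 difference was -1.02 after all sums of a class were thinned to equal totals, and -1.10 in the 30 pairs that could be fitted on nuclei of 5000 to 15000 UMIs alone. It was -0.98 with each library's trend with gene length removed and -1.04 with the trend with GC content removed. Coarser clusters (Leiden resolution 0.5) gave -1.08. Whole libraries, 1 sum of every deposited barcode, drop the classes, the filters on barcodes and the removal of doublets together, and gave -1.19 for Atxn2l, -1.11 for Gnb2 and Usp19, -1.01 for Lzts3 and -0.93 for Gnptg. In none of these settings did a caudate putamen difference reach 0, and between 17 of 30 and 23 of 35 pairs were called, or 4 of 5 genes with whole libraries. Of all genes, 0.752% (length trend removed) to 0.853% (GC trend removed) of pairs were called lower in these settings, and 25 of 22832 genes with whole libraries. D1-like nuclei did differ in depth between the ages: their median UMI count was 14460.5 and 15735.5 at 3 months and 13011 and 9745 at 21 months.

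Other measures of the same sums moved with age in the caudate putamen. The share of UMIs on mitochondrial genes was lower in both old libraries in 5 of 7 classes, for example 0.0030% and 0.0024% at 3 months and 0.0022% and 0.0019% at 21 months in D1-like neurons, and 0.0069% and 0.0049% against 0.0028% and 0.0020% in OPC-like cells. Genes no longer than the longest member, with the abundant nuclear RNA Malat1 left out, also took a smaller share in both old libraries in 5 of 7 classes. That share was 8.72% and 8.68% at 3 months and 7.90% and 8.09% at 21 months in microglia-like cells, and 6.98% and 6.94% against 6.31% and 6.42% in oligodendrocyte-like cells. The Malat1-free share overlapped in D1-like neurons, at 4.64% and 4.52% against 4.29% and 4.65%, and in astrocyte-like cells. That share was also lower in both old libraries in 6 of 8 hippocampal classes. With Malat1 counted, the short genes' share was lower in both old libraries in 1 and higher in 2 of the 7 caudate putamen classes, and for whole libraries it was 12.08% and 12.52% at 3 months and 12.55% and 12.79% at 21 months. Malat1 itself took a larger share in both old libraries in 3 of 7 classes, for example 5.01% and 5.66% against 6.21% and 6.34% in OPC-like cells. Of 70 sums of a marker list in a caudate putamen class, 8 were lower and 17 higher in both old libraries. Among all single gene and class pairs 24% were lower, and 17.2% (interneuron-like) to 30.4% (D2-like) of genes were higher. A sum of several markers is not a like unit to a single gene, so no conclusion is drawn from these counts. Markers of astrocytes in oligodendrocyte-like cells were at 380.9 and 315.2 CPM at 3 months and 475.6 and 549.5 CPM at 21 months, and in microglia-like cells at 546.1 and 520.5 against 601.4 and 765.2 CPM. Markers of the class itself were lower in old oligodendrocyte-like cells (14041 and 14494 against 13543 and 11804 CPM) and in old microglia-like cells (7216 and 7051 against 6945 and 5948 CPM). In old astrocyte-like cells the class markers were higher (14198 and 14069 against 15046 and 15409 CPM). The sum of the 8 medium spiny markers was higher in old D1-like neurons (10325 and 10389 against 10579 and 11914 CPM) and in old D2-like neurons. Single markers of that list could differ from the sum. Ppp1r1b had both old libraries lower in all 7 classes, with a median log2 age difference of -0.73. The part of depth, mitochondrial share, short genes, Malat1 and these markers in the members' age differences was not tested beyond the settings above.

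**Figure D4:**
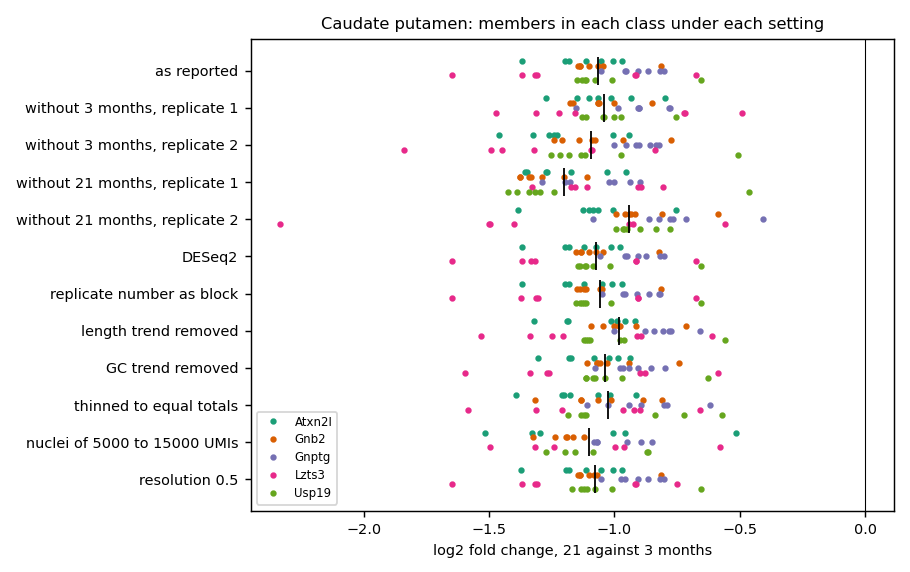
Log2 age difference of the members in caudate putamen classes (horizontal axis) under each way of processing the counts (rows); dots are single gene and class pairs, coloured by gene, and the upright line is their median. All values lie below 0, and the medians lie between -1.20 and -0.94.

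The pattern also went through single clusters. Of 20 caudate putamen clusters with at least 20 nuclei in every library, Atxn2l, Lzts3 and Usp19 had both old libraries below both young ones in 20, and Gnb2 and Gnptg in 19 each, where 21.7% of all gene and cluster pairs with at least 10 UMIs had that order. The nuclei are those whose fall chose the genes, so these counts support nothing. The exceptions were Gnb2 in a pericyte-like or mural-like cluster (60.94 CPM young mean, 55.84 CPM old mean) and Gnptg in an endothelial-like cluster (26.89 and 41.17 CPM). Both exceptions are vascular clusters outside the 7 classes, with as few as 49 and 40 nuclei in a library. In 22 hippocampal clusters the same order was found in 5 for Atxn2l, 9 for Gnb2, 10 for Gnptg and 11 each for Lzts3 and Usp19, and in 24.3% of all gene and cluster pairs.

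The 5 genes were not alone in this. In the caudate putamen 209 of 8744 genes had both old libraries below both young ones in all 7 classes, and 34 (0.389%) had both above. Among the 209, 110 (52.6%) spanned no more bases than the longest member, where 16.7% of the tested genes did, and among the 34 it was 3. The 204 genes other than the members had a median span of 11096 bases and a median exonic share of 34.0%, against 36428 bases and 14.5% for the remaining 8535 genes, while transcript GC content was alike (48.9% and 48.1%). The exonic share of 4 members (40.8% to 63.2%) was above the median of this larger group, and that of Gnptg (33.1%) just below it. In the hippocampus 0.281% of genes tested in every class had the lower order in all 8. As the members were chosen from the same fall, their place in the order is a description: by median log2 difference over the 7 classes, Lzts3 was 4th, Atxn2l 7th, Usp19 8th, Gnb2 10th and Gnptg 14th of the 209. Snrpf, a core protein of spliceosomal particles, was the first (median -1.89), followed by Dnajb5 (-1.35) and the small nucleolar host gene Snhg8 (-1.35). These 3 were named after their values were seen. A difference at or under -0.65 in every class, the weakest value of any member, was found in 14 genes, the 5 members included.

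**Figure D5:**
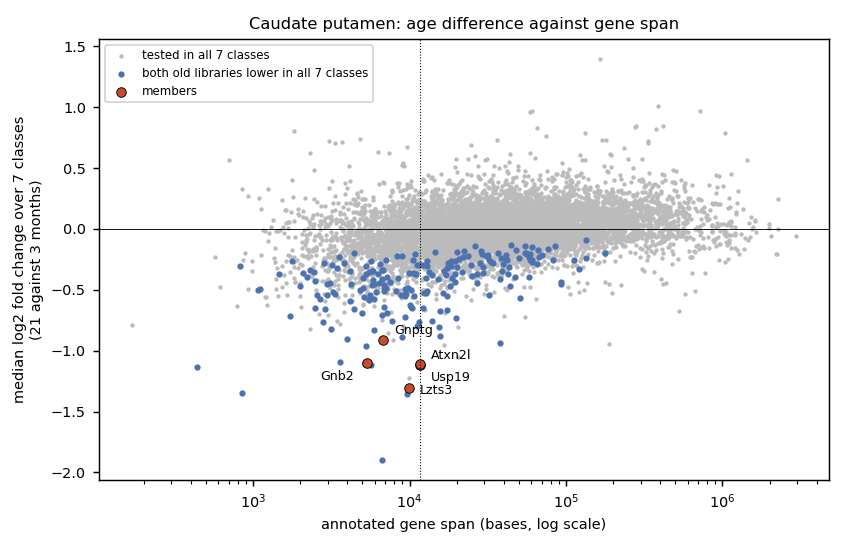
Median log2 age difference over the 7 caudate putamen classes (vertical axis) against annotated gene span in bases (horizontal log axis) for genes tested in all 7 classes (grey), those with both old libraries lower in all 7 (blue) and the members (red, named). The 5 members lie at the low edge of the cloud, at spans of 5384 to 11736 bases.

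Short genes had a lower median than longer ones in every class of both regions. With the members left out, the median log2 age difference of genes up to 11736 bases was -0.03 in D1-like and -0.06 in D2-like neurons, against 0.01 and 0.02 for longer genes. Other caudate putamen classes had lower medians for short genes, -0.16 in microglia-like, -0.13 in OPC-like and -0.10 in oligodendrocyte-like and interneuron-like cells, against 0.02 to 0.04 for longer genes. In D1-like neurons 1.69% of the short genes were called lower and 0.601% of the longer ones, and in D2-like neurons 4.43% and 2.03%. Astrocyte-like cells had medians of -0.064 and 0.015, and there the shares called lower went the other way (0.0478% of short and 0.0737% of longer genes). Over the 8 hippocampal classes the medians were between -0.21 and -0.06 for short genes and between -0.01 and 0.02 for longer ones. In dentate-granule-like neurons the medians were -0.11 and 0.01, with 0.911% of short and 2.1% of longer genes called lower.

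Likeness was measured as Pearson's r of log2 CPM, centred within each class, over 60 class and library sums and 9990 genes. The sums share libraries, and the age step of the caudate putamen enters every r, so no test is given. Usp19 was the second most like gene to Atxn2l (r = 0.882), behind Snrpf (0.905) and before Srsf5 (0.857), a splicing factor. Gnb2 and Gnptg were close to each other (0.866), with Htra2, a protease of mitochondria, nearest to Gnb2 (0.888) and Rps21 after Gnptg (0.864). Gnptg was followed by Sec62 (0.842) and Uckl1 (0.832), and Usp19 by Srsf5 (0.849) and Dusp11 (0.840) after Atxn2l. Lzts3 stood somewhat apart, with no member among its nearest 3, which were Fastk (0.822), Crocc (0.794) and Htra2 (0.789), and with 0.668 to 0.780 to the other members. The lowest r between members was 0.668, for Lzts3 and Usp19.

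Most genes next to the members did not pass the test. Annotated genes within 5000 bases numbered 10, and edgeR called 3 of their 47 tested gene and class pairs lower at 21 months in the caudate putamen and 0 higher, where 0.747% of all pairs were called lower. An unadjusted p was under 0.05 in 16 of the 47, and DESeq2 called 4, all lower. Tsr3, which starts 46 bases from Gnptg on the other strand, was at 12.75 and 10.72 CPM at 3 months and 6.43 and 6.88 CPM at 21 months in D1-like neurons (log2 -0.84, SE 0.11), and at an edgeR adjusted p of 0.0177 in D2-like neurons (log2 -0.70). Gigyf1, which ends 192 bases from Gnb2, was at 24.39 and 22.0 against 17.75 and 16.7 CPM in D1-like neurons and fell in D2-like neurons (log2 -0.55, edgeR adjusted p = 0.0253). Unkl, whose annotated span overlaps the end of Gnptg, stayed at 30.08 and 28.25 CPM young and 28.05 and 30.7 CPM old in D1-like neurons. Ubox5, 2801 bases from Lzts3, was at 14.97 and 14.68 CPM young and 16.4 and 18.19 CPM old, and Tufm, 977 bases from Atxn2l, had a log2 difference of -0.30 (SE 0.18) there and of -0.77 (SE 0.18, edgeR adjusted p = 0.0557) in D2-like neurons. Epo, on the same strand, and Gm17112, on the other, have annotated spans that overlap Gnb2. In D1-like neurons Epo was at 3.15 and 3.71 CPM young and 4.47 and 5.18 CPM old. Gm17112 was at 1.19 and 1.11 against 1.2 and 1.5 CPM there. The handling of reads that fit overlapping genes, and its part in the members' values, was not tested.

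Partners of the 5 proteins were read from lists chosen with earlier results known. Of 27 other G protein subunits and regulators, Gng12, a gamma subunit, rose in D1-like (7.01 and 5.75 CPM young, 10.65 and 10.7 CPM old, log2 0.72, edgeR adjusted p = 0.0404) and D2-like neurons (log2 0.54, edgeR adjusted p = 0.0318). Gng13 fell in D2-like neurons (2.51 and 2.5 CPM young, 1.23 and 1.34 CPM old, log2 -0.98, edgeR adjusted p = 0.0318). By edgeR these were 3 calls among 172 gene and class pairs of that list, where 1.41% of all pairs were called either way, and DESeq2 called 2 higher and 2 lower. The class medians of the list were between -0.03 and 0.07. Among endoplasmic reticulum degradation genes, edgeR called 5 of 140 pairs lower and 0 higher (DESeq2 6 and 0), where 0.747% of all pairs were called lower. Syvn1, the membrane ubiquitin ligase of that pathway, was at 8.04 and 7.35 CPM young and 3.69 and 3.87 CPM old in D1-like neurons (log2 -1.05, SE 0.12, edgeR adjusted p = 0.0198), a size like that of Usp19, and also fell in D2-like neurons (6.82 and 6.7 CPM young, 3.19 and 3.66 CPM old, edgeR adjusted p = 0.0127). Hspa8, a constitutive heat shock chaperone, fell in both (log2 -0.54 and -0.58), and Birc2 in D2-like neurons (log2 -0.42).

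The other 3 lists had no pair past the adjusted threshold in the caudate putamen. Among 14 genes of ataxin-2 and RNA granules edgeR called 0 of 98 pairs (1 higher and 19 lower at an unadjusted p under 0.05), where DESeq2 had 1 lower. Tial1, an RNA-binding protein of stress granules, was at 110.56 and 103.52 CPM young and 91.01 and 84.6 CPM old in D1-like neurons (log2 -0.31, SE 0.07), a smaller step than that of Atxn2l. Among 8 genes of mannose 6-phosphate tagging and sorting edgeR called 0 of 55 (4 higher and 4 lower before adjustment) and DESeq2 0. Gnptab, which encodes the catalytic partner of the Gnptg protein, was at 36.61 and 34.41 CPM young and 40.87 and 41.02 CPM old in D1-like neurons (log2 0.18, SE 0.07), the opposite direction to Gnptg. M6pr and Gga1 had the direction of Gnptg, with log2 -0.18 (SE 0.10) and -0.16 (SE 0.09) in D1-like neurons. In D2-like neurons they were at -0.35 (SE 0.10) and -0.33 (SE 0.11). Among 17 genes of the LZTS family and the postsynaptic scaffold edgeR called 0 of 112 (4 higher and 10 lower before adjustment) and DESeq2 0, with Homer1 at 537.62 and 704.72 CPM young and 535.77 and 535.16 CPM old in D1-like neurons. In the hippocampus edgeR called 9 of 651 pairs of the 5 lists lower and 0 higher, where 0.434% of all pairs were called lower: Gnb4, Sort1 and Lzts1 in 1 class each, and Hsp90ab1 and Hspa8 in 3 each.

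The sex of a nucleus was not used to choose the genes and was tested within libraries, with nuclei called female by Xist and male by Y-linked genes. No member was called between the sexes: with edgeR 0 of 35 caudate putamen and 0 of 32 hippocampal pairs were called, where 0.0562% and 0.115% of all pairs were. There were 2 pairs in the caudate putamen and 0 in the hippocampus at an unadjusted p under 0.05, and 0 were called by DESeq2. In D1-like neurons the female minus male log2 difference was between -0.10 (Usp19, 95% interval -0.30 to 0.09) and 0.08 (Atxn2l, 95% interval -0.10 to 0.26). The age difference in the caudate putamen was not shown to differ by sex either. With edgeR 0 of 67 pairs of sex by age were called (DESeq2 0), and 1 had an unadjusted p under 0.05, where 0.0281% of caudate putamen and 1.82% of hippocampal pairs were called. In D1-like neurons the female minus male age difference lay between -0.12 (SE 0.17, Atxn2l) and 0.23 (SE 0.17, Gnb2), small beside age differences of -1.18 and -1.14 in that class. CA3-like neurons had too few nuclei by sex to be fitted.

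Levels across classes were compared gene by gene, each class against the mean of the other classes of its region. Members were called in 30 of 35 caudate putamen pairs (63.8% of all pairs were) and in 27 of 40 hippocampal pairs (59.3%), a share near the background in the hippocampus. Lzts3 had the widest range: it was higher in D1-like (log2 1.94, SE 0.07), D2-like (2.01, SE 0.07) and dentate-granule-like neurons (2.01, SE 0.08), and lower in OPC-like cells of the caudate putamen (-1.10, SE 0.16). Gnptg was also higher in these neurons, with 0.86 (SE 0.05) in D1-like, 0.96 (SE 0.05) in D2-like and 0.89 (SE 0.06) in dentate-granule-like neurons, and -0.99 (SE 0.10) in caudate putamen microglia-like cells. Usp19 was higher in astrocyte-like cells of both regions (0.74, SE 0.07, and 0.63, SE 0.05). Atxn2l was higher in interneuron-like cells of both (0.42, SE 0.07, and 0.34, SE 0.06), and Gnb2 was higher in D2-like neurons (0.46, SE 0.05) and lower in interneuron-like cells (-0.61, SE 0.07). The fit scales the sums otherwise than CPM does, and by CPM Gnb2 was highest in microglia-like cells (mean 72.05 against 45.72 CPM in D2-like neurons). The members thus had different class profiles and age differences below 0 in every class of the caudate putamen.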

How the data were processed

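The deposited matrices hold raw counts of UMIs per gene and barcode, which the authors made with Cell Ranger 6.1.2 (7 libraries) or 7.0.0 (1 library), per the file headers. Per the submitters' processing notes the tool was Cell Ranger 4.0.0 and the build mm10. Whether intronic reads were counted is not given in the sources used here. The members and lists were chosen with earlier results of these data known.

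Barcodes with under 500 genes (1307) or over 5% mitochondrial UMIs (4) and 8775 doublets called by Scrublet (scanpy 1.11.5) were removed. Pairs of libraries shared 21 to 146 barcodes (at most 0.774%). Nuclei were clustered within each region (Leiden resolution 1.0), a class was named from at least 3 markers of a list, and classes with 20 nuclei in every library were summed per library.

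Sums were tested with edgeR 4.0.16 (TMM, filterByExpr, robust quasi-likelihood F test), neurons on the 4 libraries of their region and glia on all 8, with Benjamini-Hochberg adjustment over all genes of a class. A call is an adjusted p under 0.05. Standard errors are on the log2 scale, and 95% intervals use the t distribution with the fit's degrees of freedom. The labels do not say that libraries of 1 group came from separate animals, so p-values measure the spread between these pools. On simulated D1 counts (18171 genes, 4 libraries) 68% of genes lowered by 1 on the log2 scale were called, and 12% of those lowered by 0.5.

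The text gives all 5 members by class and library, up to 3 genes a list with the lowest p in D1-like or D2-like neurons, neighbours within 5000 bases, and the 3 genes most like each member among those with a mean of 10 CPM or more (prior 1 CPM). The alternatives were DESeq2 1.42.0, no filter on low counts, each library left out, a replicate block, length trends removed, thinning, coarser clusters, whole libraries, and glia fitted by region. The windows of depth and the GC trend were chosen after seeing the data. Genes were matched to GENCODE vM21 (99.85% of identifiers).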

Additional observations from a re-analysis of the deposited data

How the results depend on the processing

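Of 35 caudate putamen age differences 21 were called, and 4 of the 5 genes were called when whole libraries were summed without classes. Leaving out 1 library at a time gave 7 to 27 called pairs, with the fewest without young caudate putamen replicate 1 (7) and young caudate putamen replicate 2 (8) and the most without young hippocampal replicate 1 (27). Over all genes the share called lower was 0.747%, and 0.185%, 0.0876% and 0.987% in these 3 settings. In the hippocampus 0 of 40 were called, 2 with no filter on low counts and 0 to 3 with 1 library left out, the 3 being found without young hippocampal replicate 1. Calls over all hippocampal pairs, in either direction, went from 1.03% to 3.19% with no filter and to 6.27% without that library. For the difference of the regions' age effects 0 of 20 were called, and 5 with no filter, where the share of all pairs went from 0% to 0.891%. With whole libraries this difference ran from -1.21 (SE 0.09, Atxn2l) to -0.69 (SE 0.16, Gnptg) on the log2 scale. The share of all genes called was not computed there, so no count is given. For the region effect 4 of 20 were called, 2 with the GC trend removed and 3 to 7 with 1 library left out, the 7 without young hippocampal replicate 2, where 6.63% of all pairs were called higher, 6.33% with the GC trend removed and 8.39% without that library. With 1 library left out, 0 to 0 pairs were called for sex and for sex by age, and 49 to 57 for classes (57 with all libraries), where 58.3% to 60.0% of all pairs were called (61.4% with all libraries). Where a group keeps 1 library, its spread is assumed to be like that of the other groups. The cause of these changes was not tested. In no setting did a caudate putamen age difference reach 0 or a called region difference change direction. For a left-out caudate putamen library the first is no test, as both old libraries were below both young ones in every pair. Of the class differences only the 2 highest classes of each member and region were followed, and none of these changed direction.

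The labels do not say that a replicate number marks shared animals. Deviations of same-numbered libraries had correlations of 0.026 to 0.631 over the caudate putamen classes and -0.251 to 0.111 over the hippocampal ones. With the replicate block 28 of 35 caudate putamen pairs were called, 0 of 40 in the hippocampus, 0 of 20 for the difference and 4 of 20 for the region effect. The block also raised the share of all caudate putamen pairs called lower from 0.747% to 3.36%. Of all hippocampal pairs 1.83% were called in either direction with it, against 1.03% without. The shares were 0.0179% against 0% for the difference, and 7.34% against 6.63% called higher for the region effect. With few UMIs in OPC-like and microglia-like cells, differences there are the least precise.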
